A study of Oryza sativa Japonica Group with 4 samples.

Results

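In 506 pairs of enriched regions from rice seedling chromatin, a region called with a pan-crotonyllysine antibody enclosed a narrower region called with an antibody against crotonylated lysine 14 of histone H3 (H3K14cr). Pairs were taken when the pan-crotonyllysine (Kcr) region was at most 2000 bp wide and when both borders of the H3K14cr region lay at or inside its borders. Pairs in which both the starts and the ends differed by at most 100 bp were left out. The 506 pairs held 505 different Kcr regions, of 10923 in all, and 506 different H3K14cr regions, of 18813 in all. They were 8.23% of the 6145 overlapping pairs with a Kcr region of at most 2000 bp (95% Wilson interval 7.57 to 8.95%).

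The study mapped histone crotonylation by ChIP-seq, the sequencing of DNA recovered with an antibody from digested chromatin, in Nipponbare, a cultivar of japonica rice. Germination took 72 h, seedlings were sampled at 2 weeks, mainly as leaf, and no genetic change or treatment is named in the labels for any plant. Per the labels, 2 replicate libraries were made with the pan anti-Kcr antibody and 2 with the H3K14cr antibody, and a mock precipitation with normal rabbit serum is described that was not analysed here. Each mark has 1 list of regions for both replicates, with no signal, p-value or read number per region, so the depth is unknown and no spread between replicates can be given.

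Crotonylation is an acyl modification of lysine that histone acetyltransferases can write from crotonyl-CoA, and that YEATS-domain proteins bind. In mammalian cells it is known mostly from active promoters and enhancers. A pan antibody recognises crotonyllysine at many histone positions, whereas the H3K14cr antibody is directed at 1 of them, in the tail of histone H3. In an enclosing pair the outer parts of the Kcr region, here called the margins, were listed for crotonyllysine and lay outside the enclosed H3K14cr region. In 497 of the 505 Kcr regions the margins met no other H3K14cr region, and in 8 they did. Absence from a list can also mean a signal under the threshold of that list. Regions are named by position, as deposited, because the sources used here do not give the build of the lists; genes and sequences were not analysed.

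Which regions were chosen followed from their borders and widths, so values of these are a description without a test. Because no value per replicate was at hand, no test of any difference was made. Intervals are 95% Wilson intervals and cover counting error only. Neighbouring regions are not independent, so the intervals may be too narrow. The end of the last listed region stood in for the length of each chromosome.

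The enclosed H3K14cr region usually filled most of the Kcr region. It took a median of 81.7% of the Kcr width, with an interquartile range of 74.9 to 86.4% and extremes of 43.4 and 93.9%. At least 75% was taken in 377 pairs (74.5%, interval 70.5 to 78.1%), under 60% in 17 pairs and under 50% in 5 pairs. Over all 505 Kcr regions, 721 kb were listed for Kcr, of which 574 kb were also in the enclosed H3K14cr regions and 148 kb were margin. The Kcr regions were 974 to 1996 bp wide, with a median of 1372 bp. The H3K14cr regions were 619 to 1803 bp wide, with a median of 1080 bp. The point at 49.5% of the Kcr width lay in the H3K14cr region in 503 pairs. An enclosed region that takes over 50% of the width covers the middle wherever it sits. This number thus follows almost wholly from the widths and says little about placement. At 9.5% of the width the H3K14cr region covered the point in 278 pairs, and at the mirrored point, 90.5%, in 262. At 5.5% and 94.5% the numbers were 176 and 155, so at these points the lower-coordinate side was covered in somewhat more pairs.

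**Figure D1:**
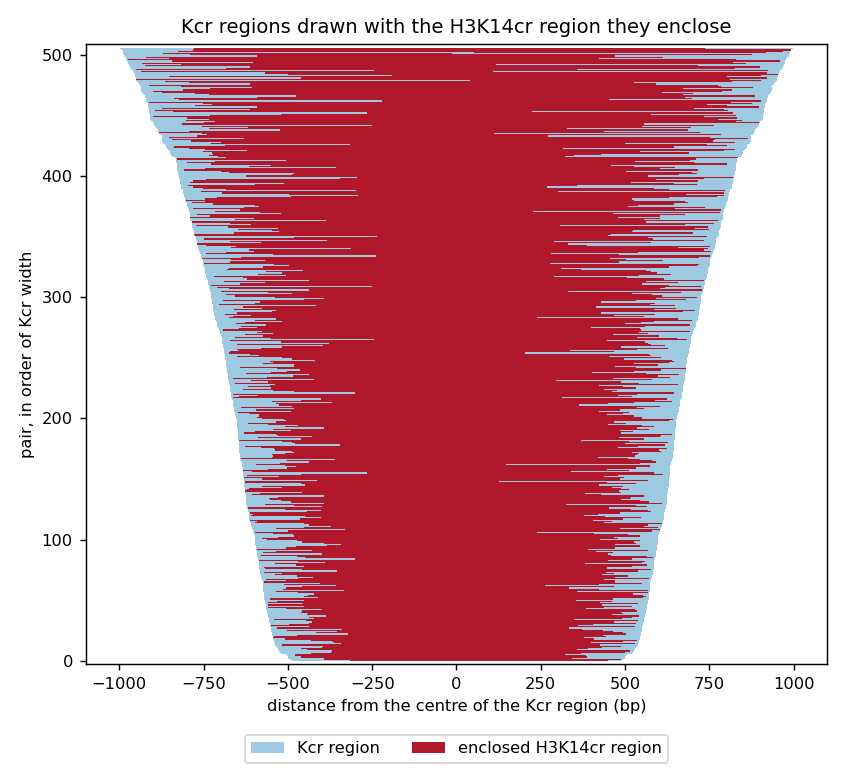
Each of the 506 pairs is a horizontal bar, ordered by Kcr width, with the distance from the centre of the Kcr region in bp on the x axis. The Kcr region is light blue and the H3K14cr region inside it dark red; the light margins are narrow beside the dark core on both sides, and the core takes a median of 81.7% of the width.

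Wider Kcr regions enclosed wider H3K14cr regions, and the difference in width tended to be larger too. Over the 506 pairs Spearman's rho between the widths was 0.76 and Pearson's r was 0.76; both are descriptions, because the rule itself keeps the H3K14cr region under the Kcr width. Between Kcr width and the difference in width rho was 0.46, and between H3K14cr width and that difference it was -0.13. That difference is the Kcr width minus the H3K14cr width, so these values are partly built in and are descriptions too. Among Kcr regions of over 1000 and up to 1200 bp the median enclosed H3K14cr region was 946 bp wide and took 83.4%. Among those of over 1600 and up to 1800 bp it was 1305 bp wide and took 76.3%, and in the widest bin, over 1800 and up to 2000 bp, it was 1488 bp wide and took 79.3%. The difference in width had a median of 246 bp and a range of 104 to 1118 bp.

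**Figure D2:**
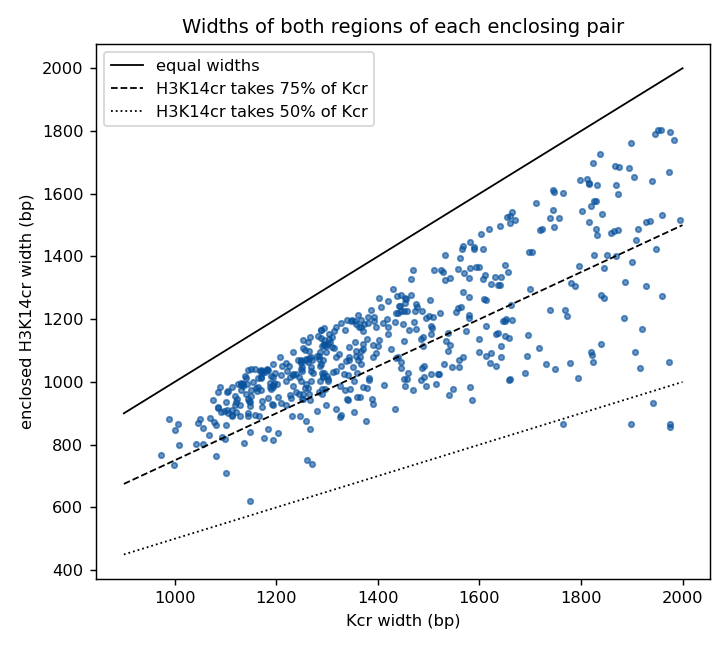
Each point is 1 of the 506 pairs, with Kcr width on the x axis and the width of the enclosed H3K14cr region on the y axis, both in bp. The solid line marks equal widths, and the dashed and dotted lines mark an H3K14cr region that takes 75% and 50% of the Kcr region; 377 pairs lie on or above the dashed line and 5 lie below the dotted one.

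Narrow Kcr regions hardly ever enclosed an H3K14cr region. Of 1123 overlapping pairs with a Kcr region of up to 1000 bp, 3 were enclosing (0.267%, interval 0.0909 to 0.782%). The share was 5.67% (4.69 to 6.84%) at over 1000 and up to 1200 bp and 12.1% (10.5 to 13.9%) at over 1200 and up to 1400 bp. In the next bins it was 11.8%, 11.99% and, at over 1800 and up to 2000 bp, 15.5% (12.2 to 19.4%). A Kcr region must be at least as wide as the H3K14cr region it encloses, so a low share among narrow regions is partly fixed by the rule. Seen from the other mark, H3K14cr regions of up to 1000 bp were enclosed in 144 of 560 overlapping pairs (25.7%, 22.3 to 29.5%), those of over 1000 and up to 1200 bp in 214 of 1505 (14.2%) and those of over 1800 and up to 2000 bp in 2 of 434 (0.461%). The limit of 2000 bp on Kcr, and the margin of over 100 bp that a pair needs, cap the H3K14cr width. This fall is thus partly fixed by the rule too. The whole H3K14cr list has no such cap, so comparisons with it are descriptions. The median enclosed H3K14cr region was wider than 13.99% of all H3K14cr regions. The median enclosing Kcr region was wider than 66.1% of all Kcr regions. H3K14cr regions under 1000 bp made up 28.5% of the enclosed ones (24.7 to 32.5%), 13.8% of those in pairs with matching borders (12.2 to 15.6%) and 6.995% of the whole list (6.64 to 7.37%).

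Both limits of the rule cut through continuous distributions. If all H3K14cr regions that lay inside a Kcr region of at most 2000 bp are taken, the larger of the margins was up to 50 bp in 144 pairs and 51 to 100 bp in 234 pairs, which the rule left out. It was 101 to 150 bp in 176 pairs, 151 to 200 bp in 121, 201 to 300 bp in 106, 301 to 500 bp in 74 and 501 to 1038 bp in 29. The pairs nearest to the limit on borders differed little. On chromosome 3, the Kcr region at 34464001 to 34465145 had margins of 101 and 4 bp and was kept. On chromosome 4, the Kcr region at 8274269 to 8275581 had margins of 63 and 100 bp and was left out. Nearest under the limit on width were Kcr regions of 1996 bp on chromosome 1 (20600847 to 20602843, with an H3K14cr region of 1515 bp) and 1984 bp on chromosome 2 (5227564 to 5229548, with one of 1772 bp). Nearest above it were Kcr regions of 2003 bp on chromosome 12 (16908733 to 16910736, with one of 985 bp) and 2005 bp on chromosome 5 (17020276 to 17022281, with one of 1320 bp).

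A border was shared within 100 bp in 384 pairs (75.9%, interval 71.98 to 79.4%), and in the other 122 (24.1%) both margins were over 100 bp. In 172 of the 384 the difference in width was at most 200 bp, and there the rule itself leaves no other outcome. Where the difference was over 200 bp, 212 of 334 pairs shared a border within 100 bp (63.5%, 58.2 to 68.5%). With a difference not far above 200 bp, even placement would also leave a border within 100 bp in many pairs. The share it would give was not worked out, so the 63.5% does not show an excess of shared borders. The shared border was the lower-coordinate one in 203 of the 384 pairs (52.9%, 47.9 to 57.8%) and the higher-coordinate one in 181. The higher-coordinate margin was the wider in 267 of all 506 pairs (52.8%, 48.4 to 57.1%), an interval that includes equal shares. The smaller margin of a pair had a median of 55 bp and the larger one of 176 bp. In the 122 pairs with margins on both sides the Kcr region had a median width of 1493 bp and the H3K14cr region of 1062 bp. The 384 pairs with a shared border had medians of 1344 and 1082 bp. The kinds thus differed more in the median width of Kcr than in that of H3K14cr. The split itself bears on this, because margins of over 100 bp on both sides need a difference in width of over 200 bp. Margins of at least 300 bp on both sides were found in 3 pairs.

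Leaving out pairs with matching borders removes centred pairs with a small difference in width, so placement inside the Kcr region was read only where the difference was over 200 bp, which the rule does not touch. In these 334 pairs the H3K14cr region was spread over the available room. The outermost 10% of the room at either end held 73 pairs (21.9%, interval 17.8 to 26.6%), where even spreading would put 20%. The middle 20% of the room held 79 pairs (23.7%, 19.4 to 28.5%). Even spreading falls inside both intervals of these pooled pairs, but not at the ends where the difference was over 500 bp, as given below. In the opposite arrangement, a Kcr region of at most 2000 bp inside a wider H3K14cr region, the corresponding shares were 34.3% at the ends (32.2 to 36.6%) and 12.9% in the middle (11.4 to 14.5%), among 1805 pairs.

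Those totals hold different sizes of room, so the shares were also read in bins of the difference in width. With a difference in width of over 200 and up to 500 bp, the ends held 19.3% of 280 enclosing pairs (15.1 to 24.3%) and 17.7% of 702 pairs of the opposite kind (15.02 to 20.7%), and the middle held 24.6% (19.96 to 30.01%) and 19.9% (17.2 to 23.1%). With a difference of over 500 bp, the ends held 19 of 54 enclosing pairs (35.2%, 23.8 to 48.5%) and 44.97% of 1103 opposite pairs (42.1 to 47.9%). These intervals overlap, and both lie above the 20% of even spreading. The middle held 10 of the 54 enclosing pairs (18.5%, 10.4 to 30.8%) and 8.34% of the opposite pairs (6.85 to 10.1%), and these intervals do not overlap. The bin of over 500 bp is not matched in size, since the difference reached 1118 bp in enclosing pairs and 5831 bp in opposite pairs. Its shares thus do not compare the arrangements at like room. The differences were not tested. A difference of over 500 bp was found in 10.7% of enclosing pairs (8.27 to 13.7%) and in 53.4% of the opposite ones (51.3 to 55.6%). The limit of 2000 bp caps this difference where Kcr is the outer region and not where H3K14cr is, so the last pair of shares does not compare the marks on equal terms.

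**Figure D3:**
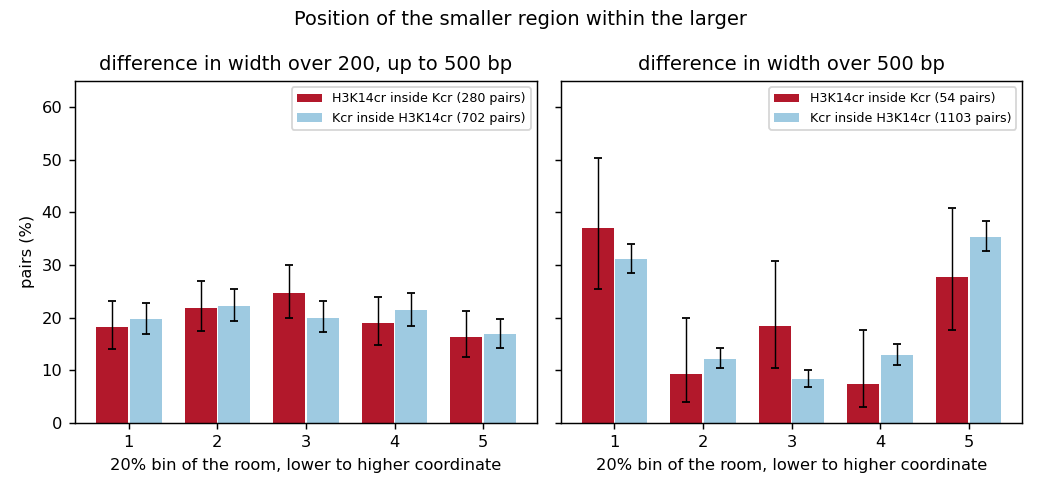
Bars give the percent of pairs with the smaller region in each 20% bin of the room inside the larger one, from lower to higher coordinate, for a difference in width of over 200 and up to 500 bp (left) and of over 500 bp (right); error bars are 95% Wilson intervals. Bars are nearly level on the left, between 16.4 and 24.6%, while on the right the outer bins are the tallest, with 37.04% and 27.8% for H3K14cr inside Kcr and 31.2% and 35.4% for Kcr inside H3K14cr.

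In 4 of the 5 pairs with the largest difference in width, the H3K14cr region sat towards 1 side of the Kcr region. A Kcr region of 1975 bp on chromosome 10, at 14329598 to 14331573, held a pair of H3K14cr regions, of 857 bp at 14329714 to 14330571 and of 866 bp at 14330636 to 14331502. It was the only Kcr region among the 505 that enclosed more than 1 H3K14cr region, and each took a small share, 43.4% and 43.8%. Both of these pairs count among the 4. At these widths, side by side in 1 Kcr region, the H3K14cr regions had to sit towards opposite sides. On chromosome 12 a Kcr region of 1898 bp at 1749306 to 1751204 enclosed an H3K14cr region of 865 bp at 1750294 to 1751159, which left 988 bp on the lower side and 45 bp on the higher. On chromosome 1 a Kcr region of 1941 bp at 38814374 to 38816315 enclosed one of 934 bp at 38814527 to 38815461, which left 153 and 854 bp. On chromosome 6 both margins were wide. There, a Kcr region of 1973 bp at 23333265 to 23335238 held an H3K14cr region of 1064 bp at 23333659 to 23334723, with margins of 394 and 515 bp.

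The most evenly centred pairs with wide margins lay on chromosomes 3 and 6. On chromosome 3 the Kcr region at 32008185 to 32010069 (1884 bp) held an H3K14cr region at 32008516 to 32009720 (1204 bp), with margins of 331 and 349 bp. On chromosome 6 the Kcr region at 8751142 to 8752962 (1820 bp) held one at 8751531 to 8752628 (1097 bp), with margins of 389 and 334 bp. With the pair at 23333265 on chromosome 6 these are all 3 pairs with at least 300 bp on both sides.

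Among the 505 enclosing Kcr regions, 497 met 1 H3K14cr region only. This share was not counted for the other kinds of pair, so it is not shown to be particular to enclosing ones. The nearest other Kcr region lay at least 59 bp from each pair, so no enclosed H3K14cr region could overlap a second one. Of the 8 Kcr regions that met more than 1 H3K14cr region, the one on chromosome 10 enclosed both of its H3K14cr regions. The other 7 enclosed 1 and were crossed at a border by another. On chromosome 4, for example, the Kcr region at 26158663 to 26160167 enclosed an H3K14cr region at 26158666 to 26159692, and a second, at 26159963 to 26160766, ran out of its higher border by 599 bp. On chromosome 3 the Kcr region at 27860045 to 27861347 enclosed one at 27860162 to 27861164, and the next, at 27861185 to 27862690, ran out by 1343 bp. In the deposited lists these Kcr regions span the gap between neighbouring H3K14cr regions.

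Close neighbours in the Kcr list were few. Gaps were measured from the outer borders of a pair to the nearest other region of each list, always for a Kcr width of at most 2000 bp. Another Kcr region lay within 2 kb in 12 of 506 enclosing pairs (2.37%, interval 1.36 to 4.10%). The share was 4.40% (3.50 to 5.51%) for the 1615 pairs with matching borders, 5.82% (4.87 to 6.95%) for the 1959 staggered pairs, in which each region runs past the other on 1 side, and 7.17% (6.13 to 8.36%) for the 2065 pairs with Kcr inside H3K14cr. Within 5 kb the shares were 16.6% (13.6 to 20.1%), 20.4%, 22.5% and 23.97% (22.2 to 25.9%) in the same order. Within 10 kb they lay close together, with 47.04% for enclosing pairs and 48.9 to 49.7% for the other kinds. The median gap to another Kcr region was 10562 bp for enclosing pairs and 10058 to 10311 bp for the others. The width of the H3K14cr region enters the outer borders of the other kinds, and a second Kcr region under the same wide H3K14cr region counts as a gap of 0, so the kinds are not alike in this measure, and the difference was not tested.

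The nearest other H3K14cr region lay at like distances in all 4 kinds of pair. One lay within 5 kb of 35.97% of enclosing pairs (31.9 to 40.2%), against 40.4% of matching, 38.8% of staggered and 37.7% of opposite pairs, with median gaps of 6622, 6275, 6385 and 6331 bp. In 304 enclosing pairs (60.1%, 55.8 to 64.3%) no other region of either list lay within 5 kb. The wider margin of a pair lay about as often away from its neighbours as towards them. Among 297 pairs whose margins differed by over 100 bp, it lay on the side of the nearest other Kcr region in 143 (48.1%, 42.5 to 53.8%) and on the side of the nearest other H3K14cr region in 147 (49.5%, 43.9 to 55.2%).

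**Figure D4:**
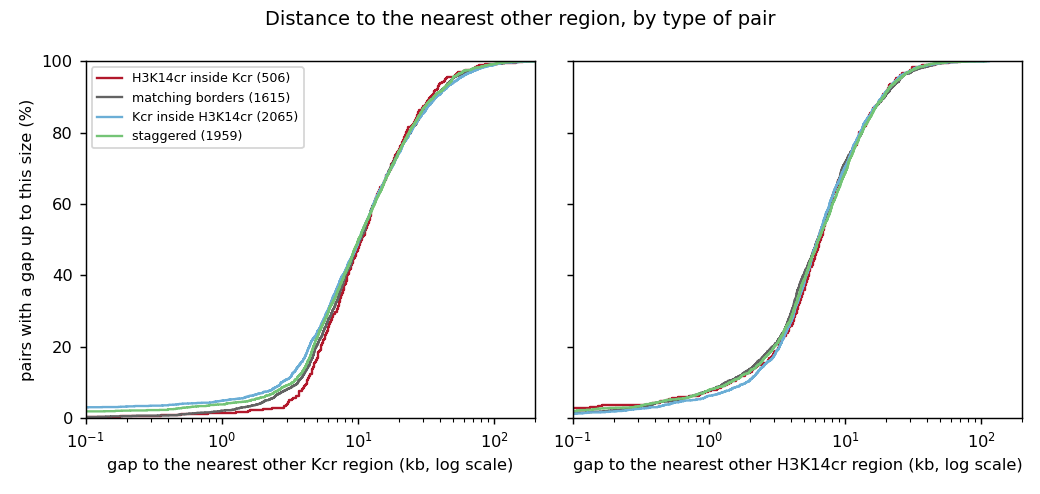
Lines give the percent of pairs whose nearest other Kcr region (left) or nearest other H3K14cr region (right) lies within the distance on the x axis, in kb on a log scale, for the 4 kinds of overlapping pair with a Kcr width of at most 2000 bp. On the left the line for H3K14cr inside Kcr runs lowest between 2 and 5 kb, where it reaches 2.37% and 16.6%, and on the right the lines nearly coincide.

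Enclosing pairs were found on all 12 chromosomes, from 23 on chromosome 9 to 83 on chromosome 3. Their share of overlapping pairs was highest on chromosome 3 (83 of 676, 12.3%, interval 10.02 to 14.97%) and chromosome 8 (51 of 460, 11.1%, 8.53 to 14.3%). On the other chromosomes it ranged from 5.93% on chromosome 4 (31 of 523, 4.21 to 8.29%) to 9.31% on chromosome 5 (6.98 to 12.3%). The interval of chromosome 3 lay above those of chromosomes 1, 2, 4, 6, 9, 10 and 12, whereas that of chromosome 8 lay above that of chromosome 4 and overlapped the rest. Opposite pairs, with Kcr inside, were 2.58 times as frequent as enclosing ones on chromosome 3, 2.53 times on chromosome 8 and 6.94 times on chromosome 4. In absolute terms there were 2.28 enclosing pairs per Mb on chromosome 3, 1.80 on chromosome 8 and 0.873 on chromosome 4.

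Chromosomes 3 and 8 together, singled out after their values were seen, had 134 enclosing pairs among 1136 (11.8%, 10.05 to 13.8%), and the other 10 had 372 among 5009 (7.43%, 6.73 to 8.19%). Wider Kcr regions enclose more often, so the share was also read within bins of Kcr width. At over 1000 and up to 1200 bp it was 9.003% (6.30 to 12.7%) on chromosomes 3 and 8 and 4.96% (3.97 to 6.19%) on the others. At over 1200 and up to 1400 bp it was 17.3% (13.1 to 22.4%) and 10.9% (9.23 to 12.9%), and at over 1400 and up to 2000 bp it was 15.6% (12.4 to 19.5%) and 11.8% (10.3 to 13.6%). The share on chromosomes 3 and 8 was higher in each of these bins, with overlapping intervals in the widest. Taken singly, the intervals were wider. Chromosome 8 had 4.20 to 13.5% in the first bin and 11.6 to 27.1% in the second. Chromosome 3 had 11.8 to 23.3% in the second. All of these overlap the intervals of the other 10 chromosomes. In the first bin, however, chromosome 3 had 6.42 to 15.3%, which lay above the 3.97 to 6.19% of the other 10. In the whole H3K14cr list the median width was 1718 bp on chromosome 4, 1689 bp on chromosome 3 and 1555 bp on chromosome 8. In overlapping pairs the H3K14cr medians were 1538, 1405 and 1322 bp in the same order. The part of these widths in the shares was not tested.

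**Figure D5:**
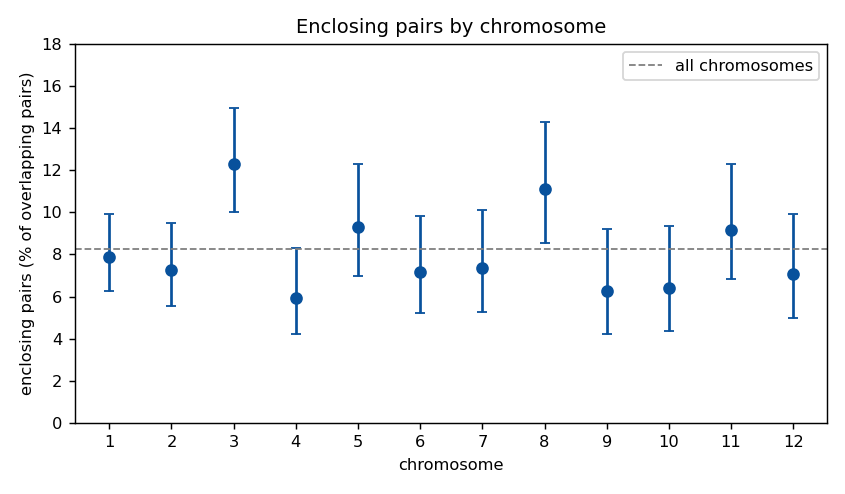
Points give enclosing pairs as a percent of all overlapping pairs with a Kcr width of at most 2000 bp on each of the 12 chromosomes, with 95% Wilson intervals, and the dashed line gives the value over all chromosomes, 8.23%. Chromosomes 3 and 8, at 12.3 and 11.1%, are the 2 points whose intervals lie wholly above the line.

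The pairs were thinly scattered along the chromosomes. Of 367 full windows of 1 Mb, 256 held at least 1 enclosing pair and 111 held none, with 1.33 ± 1.31 pairs per window (SD, n = 367 windows). The fullest windows held 7 pairs each and both lay on chromosome 8. They were at 1 to 1000000, with 37 overlapping pairs, and at 8000001 to 9000000, with 18 overlapping pairs. In the first of these, the enclosed H3K14cr regions took from 69.1 to 86.6% of their Kcr regions, and in the second from 67.04 to 88.4%. Over the windows, the number of enclosing pairs and of all Kcr regions were related with a rho of 0.42 (Spearman) and an r of 0.40 (Pearson). With all H3K14cr regions rho was 0.27 and r 0.25. These are descriptions, since the counts share the same lists and each enclosing pair adds to both totals.

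Enclosing pairs were scarce where Kcr regions were sparse. In the 92 windows with 7 to 21 Kcr regions they made up 5.09% of 963 overlapping pairs (3.87 to 6.66%). In windows with 22 to 28, 29 to 35 and 36 to 65 Kcr regions the share was 8.32% (6.99 to 9.87%), 9.08% (7.78 to 10.6%) and 8.77% (7.60 to 10.1%). Kcr regions of overlapping pairs were also narrower in the sparse windows, with a median of 1144 bp against 1283 bp in the densest. Within bins of Kcr width the contrast was uneven. At over 1000 and up to 1200 bp the share was 5.62% in the sparsest windows and 6.28% in the densest. At over 1200 and up to 1400 bp it was 7.43% (4.55 to 11.9%) and 11.5% (8.90 to 14.8%), and at over 1400 and up to 2000 bp it was 8.25% (5.14 to 12.98%) and 11.96% (9.81 to 14.5%), with overlapping intervals.

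The outermost 1 Mb of the chromosome ends held 58 enclosing pairs, or 11.5% of them (8.97 to 14.5%). This was near the 9.78% (9.21 to 10.4%) of all Kcr regions of at most 2000 bp that lay there, and near the shares of matching pairs (10.5%, 9.06 to 12.1%) and staggered pairs (9.65%, 8.42 to 11.0%). Of opposite pairs 6.83% lay there (5.82 to 7.998%) and of all H3K14cr regions 7.09% (6.73 to 7.46%), both below the interval for enclosing pairs. Kcr regions of overlapping pairs were wider there, with a median of 1284 bp against 1217 bp elsewhere. At over 1000 and up to 1200 bp the enclosing share was 5.16% there and 5.72% elsewhere. At over 1200 and up to 1400 bp it was 13.01% and 12.01%, and at over 1400 and up to 2000 bp 16.4% and 12.2%. The intervals overlapped in each of these bins. Single ends held from 0 to 7 enclosing pairs, and the ends named below are among the highest and lowest. Over all chromosomes 8.23% of overlapping pairs were enclosing, and counts this small do not show that ends differ. The first 1 Mb held 7 enclosing pairs of 37 overlapping pairs on chromosome 8 and 6 of 28 on chromosome 11. The last 1 Mb held 6 enclosing pairs on chromosome 5, where its overlapping pairs were not counted. Neither end of chromosome 9 held any, with 17 overlapping pairs in its first 1 Mb.

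Of the 505 enclosing Kcr regions, 444 had no enclosing Kcr region next to them in the list. The next Kcr region up the chromosome was also an enclosing one in 32 of 504 cases (6.35%, interval 4.53 to 8.83%), an interval that includes the 4.62% of all Kcr regions that were enclosing (4.25 to 5.03%). The longest row held 4 consecutive Kcr regions over 161 kb of chromosome 8, and 1 row of 3 spanned 44.9 kb of chromosome 3. In the row on chromosome 8 the Kcr region at 10061731 to 10063222 had margins of 66 and 375 bp, that at 10097661 to 10099621 had 129 and 557 bp, that at 10131436 to 10133281 had 331 and 245 bp and that at 10221729 to 10223068 had 8 and 133 bp. Their H3K14cr regions took 70.4, 65, 68.8 and 89.5% of the width. The wider margin was thus on the higher-coordinate side in 3 of these 4 regions. In the row on chromosome 3 it was on the lower side in all 3, with margins of 115 and 21 bp, 363 and 201 bp, and 258 and 115 bp.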

How the data were processed

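ChIP-seq regions of rice seedlings were analysed from 2 deposited lists, 1 per antibody, each named by the labels as the file of both replicates. Per the submitters' processing notes, the authors used Bowtie. The sources used here do not give its version, the build, the caller, the threshold or the role of the mock library. The deposited values are starts and ends in bp, with no count or score, so depth and replicate error are unknown.

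Overlapping pairs (at least 1 bp) were sorted by their borders with Python 3.11.15, numpy 2.4.6, pandas 2.3.3 and scipy 1.17.1. Width was end minus start. Pairs with both borders within 100 bp were matching; the rest were enclosing, opposite (Kcr inside H3K14cr) or staggered. The sorting was tested on simulated data. Named regions were the 5 largest differences in width, 3 smallest shares, 3 most centred pairs, Kcr regions enclosing more than 1 region, those nearest the limits and the fullest windows; rows of neighbours, crossed borders and chromosomes 3, 4 and 8 were named after their values were seen. Members and comparisons were chosen with earlier results of these data known. Alternatives changed the width limit, the tolerance, strictness, the H3K14cr list and merging. The gene table at hand, of assembly ASM3414082v1, could not be matched to the lists and was not used.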

Additional observations from a re-analysis of the deposited data

How the results depend on the processing

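No paired analysis was possible because replicates of a mark share a single list, and no replicate could be left out. Of 56 alternative values for 8 results under 7 settings, 43 stayed within 1.5 times the count or within the interval or interquartile range of the value reported. The number of pairs was 326 with a limit of 1500 bp, 209 with a tolerance of 200 bp and 147 without the narrowest 25% of H3K14cr regions (under 1202 bp), each of which removes pairs by construction. The share of pairs with a border shared within 100 bp was 80.98% with the limit of 1500 bp, 83.5% with a tolerance of 50 bp and 65.6% with one of 200 bp. With the tolerance of 200 bp the median share of the Kcr region taken was 72.96% and the middle 20% of the room held 13.4% of pairs, against 16.996% of all 506. A wider tolerance leaves out more pairs with a small difference in width, centred ones above all. These values are thus partly fixed by the rule, as are the shared-border shares at changed tolerances. Without the narrowest 25% of H3K14cr regions, another H3K14cr region lay within 5 kb in 29.9% and another Kcr region in 12.2%. The share of Kcr regions enclosing more than 1 H3K14cr region, 0.198% or 1 region, was 0 with the limit of 1500 bp, without those narrowest regions and after merging regions up to 200 bp apart.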

Other observations

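Enclosing also occurred above the limit on width. Kcr regions wider than 2000 bp enclosed an H3K14cr region in 138 of 882 overlapping pairs (15.6%, interval 13.4 to 18.2%). These involved 136 Kcr regions, of which 2 enclosed more than 1 H3K14cr region. The Kcr regions had a median width of 2470.5 bp and the enclosed H3K14cr regions of 1774 bp, which took a median of 71.4%, against 81.7% up to 2000 bp.

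Borders of the marks sometimes had the same coordinate. Among the 506 enclosing pairs the lower borders were identical in 10 and the higher borders in none. Over all 7027 overlapping pairs the lower borders were identical in 66 (0.939%, 0.739 to 1.19%) and the higher ones in 37 (0.527%, 0.382 to 0.725%). Lower borders 1 bp apart, in either direction, were found in 54 pairs and higher borders 1 bp apart in 63. The source of the identical lower borders was not tested.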
